A study of Caenorhabditis elegans with 9 samples.

Results

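Amino-functionalised graphene oxide (GONH2) was compared with no nanomaterial in whole wild-type Caenorhabditis elegans of the strain N2. The comparison holds 3 GONH2 and 3 control libraries of the 9 libraries of the series. The other 3 libraries come from worms given unmodified graphene oxide (GO), a sheet of carbon that carries oxygen groups. GONH2 is GO to which amino groups have been attached. Each library was made from total RNA of 500 animals kept for 12 h in liquid culture, and the control animals were mock-treated. The sources used here do not give the dose, the age of the worms or whether replicates were grown apart. The p-values therefore reflect only how these samples vary among themselves, which may be technical. Levels are in FPKM, the fragments of a gene scaled by its transcript length and by the mapped fragments of its library. Of 46284 genes, those that reached 1 FPKM in 3 or more of the 9 libraries were tested, 12849 in all. FPKM do not carry the number of reads, so the depth behind each value is unknown.

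C. elegans feeds on bacteria, which it grinds in the pharynx and digests in the intestine, a tube of a small number of large polarised cells. These cells secrete lysozymes, lectins, saposin-like proteins and acid proteases, which digest food bacteria and also act against pathogens; the worm has no phagocytic immune cells of the vertebrate kind. Several pathways set the level of these genes, among them the p38 mitogen-activated kinase PMK-1 and the insulin pathway through the transcription factor DAF-16. Oxidative stress and foreign compounds, which are often looked at with nanomaterials, act on other families such as glutathione S-transferases and superoxide dismutases.

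In GONH2, 46 genes were higher than in control, which is 0.358% of the genes tested, and 10 were lower (0.0778%), together 56 genes or 0.436%. These genes passed an adjusted p of 0.05 in a linear model of log2(FPKM + 1) fitted to all 9 libraries with limma. At an unadjusted p under 0.05, 435 genes were higher (3.39%) and 247 lower (1.92%), which is 5.31% of the genes tested. In all 56 called genes the lowest library of the higher group lay above the highest of the other, a pattern seen in 8.83% of all genes tested, 5.18% with GONH2 higher and 3.65% with GONH2 lower. The rises were small and came from abundant genes. Their median log2 difference was 0.42, only 3 reached 2-fold on that scale, and 30 lay under 0.5. Their median level over all libraries was 111 FPKM, against 18.5 FPKM for all genes tested, and 23 of the 46 reached 100 FPKM, a level reached by 12.6% of genes tested. Their median residual SD on the log2 scale was 0.057, against 0.11 for all genes tested. Small differences can pass the test only where the spread is small, so these traits are in part what the test can detect. The log2(FPKM + 1) scale understates the change of genes near or under 1 FPKM. All 46 rises and 9 of the 10 falls were protein-coding genes. A gene was tested where at least 3 of the 9 libraries reached 1 FPKM. Y46E12A.5 and scl-24 reached it in the GONH2 libraries alone, and asm-3, clec-70 and cel-mir-8199 in the control libraries alone. These genes could be tested only because 1 group was high, so their values are given as a description and their calls support nothing.

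**Figure D1:**
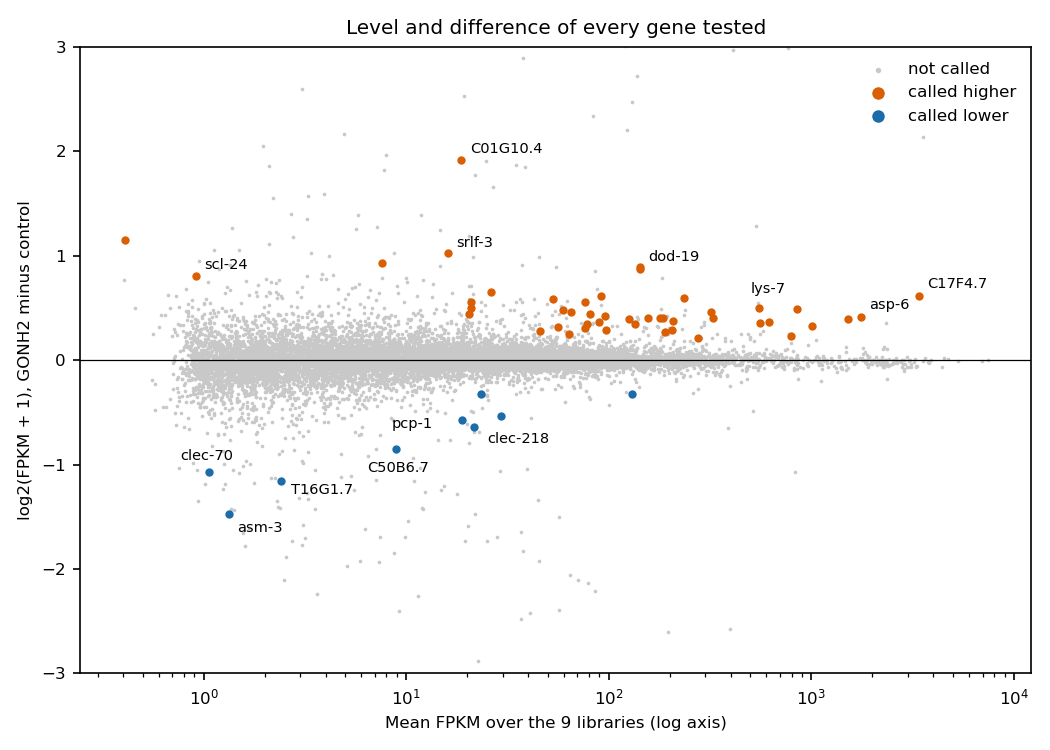
Mean FPKM over the 9 libraries (log axis) against the log2(FPKM + 1) difference of GONH2 minus control for each gene tested. The 46 genes called higher (orange) lie mostly at the right, above 10 FPKM and under a difference of 1, and the genes called lower (blue) lie further left. The vertical axis ends at 3 in each direction, which leaves out 14 genes that were not called; cel-mir-8199, listed at 0 in all GONH2 libraries, is not drawn.

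The libraries differed little as wholes. Library sums of FPKM ran from 955606 to 989329 in the 6 libraries, and 12299 to 12659 genes reached 1 FPKM. Pearson's r of log2 values was 0.986 to 0.993 within groups and 0.986 to 0.992 between GONH2 and control libraries, and the median log2 difference over all genes was 0.0031. The calls leaned on the libraries unevenly. GONH2 replicate 1 was the highest of its group in 34 of the 46 rises and replicate 3 the lowest in 35, where over all genes tested these libraries held those places in 42.5% and 34.7%. Control replicate 1 was the lowest control in 31 of the 46 (33.1% of all genes tested). Fits that left out 1 library ended 24, 13 and 21 of the 46 rises without control replicates 1, 2 and 3. Without GONH2 replicates 1, 2 and 3 they ended 26, 25 and 19, and without GO replicates 1, 2 and 3, which add only to the estimate of spread, 7, 17 and 12. Of the 10 falls, these fits ended 5, 4 and 5 without the controls, 5, 6 and 6 without the GONH2 replicates and 4, 5 and 4 without the GO replicates. In all 6 fits without a GONH2 or control library, 20 of the rises and 4 of the falls were called. Y46E12A.5 is among these rises, and asm-3 and cel-mir-8199 are among these falls. They passed the filter through 1 group alone, so their calls support nothing here either. These fits also called other genes: their totals of higher and lower genes were 22 and 5, 47 and 7, and 30 and 11 without control replicates 1, 2 and 3, and 20 and 5, 22 and 5, and 32 and 4 without GONH2 replicates 1, 2 and 3. All counts by list below refer to the fit to 9 libraries.

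Lysozymes, which cleave bacterial cell walls, gave 2 rises and no fall. Of 16 lysozyme genes 10 were tested, and the estimates of all 10 lay above 0 with a median of 0.23. Each GONH2 library had a higher list median than each control library. The lysozyme gene lys-7 (WBGene00003096, chromosome V, 3481432 to 3482600 of WBcel235) stood at 398, 396 and 407 FPKM in the controls and at 573, 566 and 562 FPKM in GONH2. The lowest GONH2 library was far above the highest control, and the libraries of each group lay close together. The log2 difference was 0.50 ± 0.025, with an adjusted p of 1.08e-04, and the FPKM mean was 1.42 times that of the controls. The smaller rise of lys-4 was 0.21 ± 0.030 (adjusted p = 0.0264), from 248 ± 4.35 to 287 ± 3.97 FPKM (mean ± SD, n = 3), and its call was lost in 7 of 9 fits that left out 1 library (adjusted p up to 0.140 without GONH2 replicate 1). The most abundant member, the invertebrate-type lysozyme gene ilys-5, stood at 1744, 2101 and 1863 FPKM in controls and at 2038, 1984 and 1854 in GONH2. Its groups overlapped, with a difference whose 95% interval ran from −0.12 to 0.21. The values of lys-1 were 345, 400.5 and 423 FPKM in controls and 489, 458 and 437 in GONH2. They did not overlap, but lys-1 did not pass (log2 0.25, adjusted p = 0.753).

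C-type lectins, a large secreted family of the worm whose fold often binds sugars, moved in both directions. Of 240 clec genes 78 were tested, 7 rose and 3 fell, and the median difference of the 78 was 0.073. At an unadjusted p under 0.05, 16 were higher and 4 lower. The rise with the smallest p was clec-62 (chromosome II, 12893062 to 12895128), at 36.1, 34.1 and 36.96 FPKM in controls and 55.02, 55.1 and 52.4 FPKM in GONH2. Both groups were tight and lay apart, with a log2 difference of 0.59 ± 0.042 (adjusted p = 0.00169). The neighbouring gene clec-63 lies 509 bases away on the opposite strand and was the most abundant lectin that rose. It went from 613 ± 43.4 to 858 ± 17.1 FPKM, a log2 difference of 0.49 ± 0.049 (adjusted p = 0.00441). On the strand of clec-63, clec-65 rose by 0.40 ± 0.040 (adjusted p = 0.00441), while clec-64 between them was too low to be tested. The members clec-85 and clec-150 lie on other parts of the genome.

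For clec-85 (chromosome IV, 2850886 to 2855456) the control libraries held 59.4, 54.9 and 61.6 FPKM and the GONH2 libraries 91.9, 92.8 and 86.8 FPKM. The groups did not overlap, and the log2 difference was 0.62 ± 0.048 (adjusted p = 0.00245). Its exons share 397 bases with Y54G2A.40 on the same strand, which stayed under 1 FPKM in every library. The rises of clec-150 (0.40, adjusted p = 0.00245), clec-41 (0.56, adjusted p = 0.0387) and clec-50 (0.35, adjusted p = 0.00343) were smaller. Of the 7 lectins that rose, clec-41 was the one whose call was lost when 1 library was left out, in 7 of 9 fits (adjusted p up to 0.200 without GONH2 replicate 1). The lectins that fell were clec-5, clec-218 and clec-70. The gene clec-5 went from 37.5, 38.99 and 42.9 FPKM in the controls to 27.8, 26.9 and 26.9 in GONH2, a difference of −0.53 ± 0.069 (adjusted p = 0.0181). The gene clec-218 went from 30.04, 33.96 and 27.6 to 20.2, 16.9 and 20.7 FPKM (−0.64 ± 0.095, adjusted p = 0.0345). The third, clec-70, was at 2.59, 1.53 and 2.64 FPKM in controls and 0.560, 0.470 and 0.548 in GONH2 (−1.07 ± 0.17, adjusted p = 0.0438), and it passed the filter through the controls alone; without the filter it was not called (adjusted p = 0.0745). All 3 falls were without overlap, and each was lost in some fits without 1 library: clec-5 in 4 of 9 (adjusted p up to 0.109 without GONH2 replicate 2), clec-218 in 8 of 9 (0.131 without control replicate 1) and clec-70 in 8 of 9 (0.205 without GONH2 replicate 1). The most abundant lectins, clec-87 and clec-88, were not called, with log2 differences of −0.026 (95% interval −0.10 to 0.046) and −0.014 (−0.11 to 0.086).

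Genes of the CUB-like family and other genes raised by infection gave 2 rises and no fall among 16 tested, with a median of 0.23; at an unadjusted p under 0.05, 9 were higher and 2 lower. The CUB-like gene C17H12.8 was listed at 72.6, 70.8 and 96.1 FPKM in the controls and 166, 136 and 138 FPKM in GONH2. The lowest GONH2 library was above the highest control, control replicate 3, and the log2 difference was 0.88 ± 0.12 (adjusted p = 0.0234). The infection response gene irg-7, which is needed for p38-dependent immune gene expression, rose by 0.31 ± 0.044 (adjusted p = 0.0253) from 62.3 ± 2.22 to 77.6 ± 2.26 FPKM. Both calls were lost whichever of several libraries was left out. C17H12.8 was lost in 6 of 9 such fits (adjusted p up to 0.106 without GONH2 replicate 1). The call of irg-7 was lost in 7 of 9 (0.140 without GONH2 replicate 1). The abundant members dod-24 and K08D8.5 had differences of 0.30 (adjusted p = 0.348) and 0.21 (adjusted p = 0.887). The kinases and transcription factors of the p38 pathway itself held no called gene by limma among 11 tested, and 1 at an unadjusted p under 0.05. That gene was vhp-1, a phosphatase that acts on the kinases, with a log2 difference of 0.15 (adjusted p = 0.887). Among 27 small antimicrobial peptide genes of the abf, cnc, fip and fipr families none was called by limma; 2 were lower and none higher at an unadjusted p under 0.05, and the list median was −0.030.

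Saposin-like proteins, which bind lipids and in some members open pores in bacterial membranes, gave 2 rises among 23 genes tested, with a list median of 0.098. Of the 23, 4 were higher and 1 lower at an unadjusted p under 0.05. The lower one was the abundant spp-14, at 1228 to 1263 FPKM in controls and 1061 to 1115 FPKM in GONH2. It did not overlap and was not called (−0.20, adjusted p = 0.269). The gene spp-2 stood at 163, 140.1 and 183 FPKM in the controls and 252, 248 and 231 FPKM in GONH2, without overlap. Its log2 difference was 0.59 ± 0.085 (adjusted p = 0.0276). The adjacent gene spp-3, 641 bases away on the same strand of chromosome X (7314969 to 7316818 for the pair), rose by 0.23 ± 0.035 (adjusted p = 0.0387) from 699 ± 23.8 to 819 ± 18.7 FPKM. Both were lost in fits without 1 library, spp-2 in 7 of 9 (adjusted p up to 0.168 without GONH2 replicate 1) and spp-3 in 8 of 9 (0.205 without GONH2 replicate 1). The most abundant member spp-5 was not called, at 2160, 2408 and 2165 FPKM in controls and 2488, 2450 and 2307 in GONH2 (95% interval of the log2 difference −0.018 to 0.23).

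The nematode-specific peptide family, group G, is a set of small genes whose function is not described here. It held 3 rises among 10 tested, 7 genes higher and none lower at an unadjusted p under 0.05, and a list median of 0.26. The most firmly called, nspg-14, was at 134, 141 and 147 FPKM in controls and 184, 196 and 182 FPKM in GONH2, a difference of 0.41 ± 0.042 (adjusted p = 0.00459). Its neighbour nspg-13 lies 125 bases away on the same strand of chromosome X (5253047 to 5256855 for the pair) and rose by 0.35 ± 0.044 (adjusted p = 0.0145). The third, nspg-6, rose by 0.29 ± 0.039 (adjusted p = 0.0220). Of these, nspg-14 was called in each fit without 1 library, while nspg-13 was lost in 4 of 9 (adjusted p up to 0.0877 without GONH2 replicate 2) and nspg-6 in 5 of 9 (0.106 without GONH2 replicate 2). The abundant members nspg-7.1 and nspg-9 had estimates of 0.36 (adjusted p = 0.108) and 0.22 (adjusted p = 0.0882).

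Acid proteases of the gut and lysosome rose in part. Aspartic proteases, relatives of cathepsin D and pepsin, had 2 rises and no fall among 11 tested, and a list median of 0.19. Of the 11, 6 were higher and 1 lower at an unadjusted p under 0.05. The intestinal protease gene asp-1 (chromosome V, 19049562 to 19050752) stood at 1215, 1211 and 1277 FPKM in the controls and at 1657, 1651 and 1574 FPKM in GONH2. The lowest GONH2 library was well above the highest control, and the difference was 0.40 ± 0.033 (adjusted p = 0.00245). For asp-6 the levels were 1440, 1312 and 1413 FPKM in controls and 1969, 1838 and 1729 FPKM in GONH2 (0.41 ± 0.055, adjusted p = 0.0220), a call lost in 5 of 9 fits without 1 library (adjusted p up to 0.116 without GONH2 replicate 2). Just outside the threshold, asp-3, a cathepsin D relative that acts in necrotic cell death, was at 914, 911 and 966 FPKM in controls and 1071, 1083 and 1035 FPKM in GONH2. Its groups did not overlap and its adjusted p was 0.0509 for a difference of 0.19. For asp-5 the groups also lay apart, at 514 to 575 FPKM in controls and 633 to 676 FPKM in GONH2. It was not called, with a difference of 0.25 ± 2.17. That standard error is taken from all 9 libraries, and GO minus control was −2.79 for this gene, so the miss does not show that asp-5 was unchanged.

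Of 10 cysteine cathepsins tested, 4 were higher and 2 lower at an unadjusted p under 0.05, and 1 was called, as a rise. This was cpr-9, a relative of cathepsin B, from 511 ± 15.5 to 659 ± 44.4 FPKM (0.36 ± 0.050, adjusted p = 0.0227); the call was lost in 5 of 9 fits without 1 library (adjusted p up to 0.116 without GONH2 replicate 2). The more abundant cpl-1 and cpr-6 were not called, with 95% intervals of −0.060 to 0.090 and −0.064 to 0.10. The gene cpz-1 was lower without overlap, at 496 to 514 FPKM in controls and 462 to 476 FPKM in GONH2. It was not called either (−0.10, adjusted p = 0.268). Serine carboxypeptidases gave 2 rises and 1 fall among 11 tested, with a median of 0.24. Of these 11, 3 were higher and 2 lower at an unadjusted p under 0.05. The cathepsin A relative ctsa-4.2 was at 13.8, 16.4 and 13.5 FPKM in controls and 22.4, 21.4 and 21.7 FPKM in GONH2 (0.55 ± 0.077, adjusted p = 0.0247), and was lost in 7 of 9 fits without 1 library (adjusted p up to 0.140 without GONH2 replicate 1). The more abundant ctsa-1.2 rose from 253 ± 3.79 to 336 ± 8.75 FPKM (0.41 ± 0.036, adjusted p = 0.00272). The prolyl carboxypeptidase relative pcp-1 went the other way, from 23.5, 24.5 and 22.7 FPKM in controls to 15.7, 16.1 and 14.9 FPKM in GONH2. All GONH2 libraries were under all controls, with a difference of −0.57 ± 0.059 (adjusted p = 0.00459). Of other putative serine proteases, K12H4.7 rose from 241 ± 8.90 to 331 ± 11.6 FPKM (0.46 ± 0.037, adjusted p = 0.00245) and F56F10.1 by 0.28 (adjusted p = 0.0465, lost in 8 of 9 fits without 1 library, with 0.218 without GONH2 replicate 1). Neither lysosomal lipases (7 tested) nor the proton pump and other lysosome genes (33 tested) held a called gene by limma. At an unadjusted p under 0.05, 1 lipase was higher and 1 lower, and 2 lysosome genes were higher and 1 lower. The medians were 0.087 and 0.0093. The abundant lipase lipl-5 was near the threshold, at 0.22 with an adjusted p of 0.0694.

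**Figure D2:**
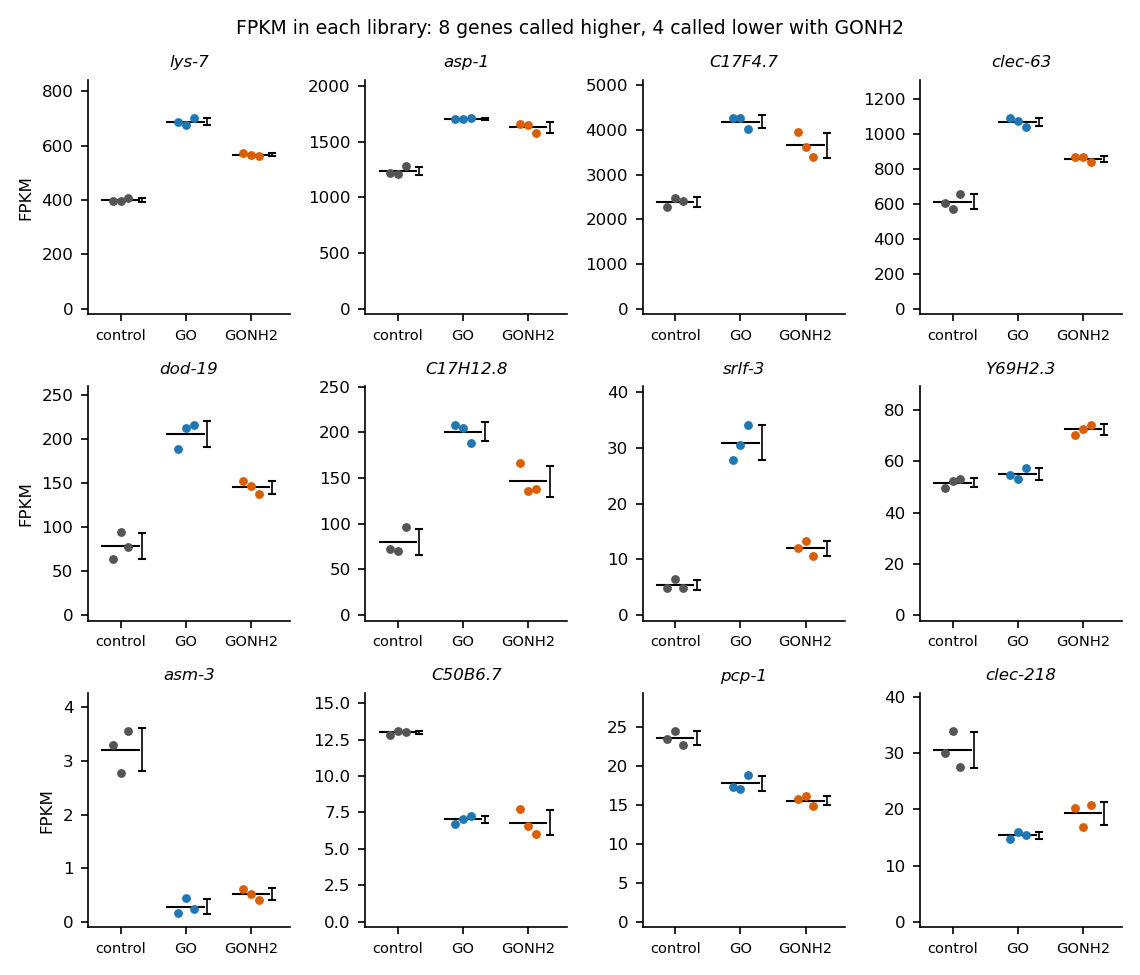
FPKM (linear axes from 0) of 12 called genes in the control (grey), GO (blue) and GONH2 (orange) libraries; each point is a library, the line is the group mean and the bracket its SD (n = 3). The GONH2 points lie above all control points for the genes that rose, such as lys-7 at 562 to 573 FPKM against 396 to 407, and below them for the genes that fell.

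Genes placed downstream of DAF-16 in studies of the insulin pathway were described as a separate pair of lists. Of 7 tested genes that active DAF-16 lowers, 1 was called higher, 5 were higher and 1, the yolk protein gene vit-5, was lower at an unadjusted p under 0.05 (−0.18 for vit-5, adjusted p = 0.0858), and the median was 0.30. The called gene was dod-19, at 64.3, 94.02 and 77.8 FPKM in controls and 152, 146 and 137 FPKM in GONH2. Its groups did not overlap, although the controls were spread more widely than the GONH2 libraries. The difference was 0.89 ± 0.12 (adjusted p = 0.0227), and it was lost in 5 of 9 fits without 1 library (adjusted p up to 0.136 without GONH2 replicate 1). The abundant dod-23, at 142, 153 and 162 FPKM in controls and 199.6, 221 and 196 FPKM in GONH2, missed the threshold (0.43, adjusted p = 0.0555). Of 15 tested genes that DAF-16 raises, lys-7 was the only one called and the only one with an unadjusted p under 0.05; the median was 0.088. The DAF-16-controlled gene dct-17, on neither list, was at 3.37, 5.03 and 3.50 FPKM in controls and 8.09, 9.14 and 7.91 FPKM in GONH2 (0.93 ± 0.14, adjusted p = 0.0394; lost in 7 of 9 fits without 1 library, with 0.194 without GONH2 replicate 2). Among 12 genes of the insulin pathway itself none was called by limma and none had an unadjusted p under 0.05.

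Several of the largest relative rises were in genes at low levels. The gene C01G10.4 (WBGene00007231, chromosome V, 15089740 to 15090059) was listed at 0.477, 0.431 and 0 FPKM in the controls and 2.69, 5.06 and 4.13 FPKM in GONH2. Every GONH2 library was above every control, and the difference of 1.92 ± 0.21 (adjusted p = 0.00676) was the largest of all rises. It was called in each fit that left out 1 library, but not on log2(FPKM + 0.1) (adjusted p = 0.0569) or from the 6 control and GONH2 libraries alone (adjusted p = 0.0512). In the GO libraries the same gene was at 45.9, 58.4 and 51.7 FPKM, so that the GONH2 level lay between control and GO and its test against GO also passed (difference −3.44, adjusted p = 0.00151). The gene Y46E12A.5 was listed at 0 in all control and GO libraries and at 1.43, 1.16 and 1.09 FPKM in GONH2 (adjusted p = 0.00441). It passed the filter on low values through the GONH2 libraries alone, so it could be tested only because it was high there, and no fold is given. The srlf family member srlf-3 was at 4.80, 6.51 and 4.95 FPKM in controls and 12.1, 13.4 and 10.6 FPKM in GONH2. The groups lay apart, with a difference of 1.02 ± 0.13 (adjusted p = 0.0145), lost in 4 of 9 fits without 1 library (adjusted p up to 0.0859 without GONH2 replicate 2). Of 12 srlf genes tested it was the one called, and the list median was −0.013.

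A further set of rises has no role given here or stands alone in its family. C17F4.7 was the most abundant gene called, at 2266, 2482 and 2404 FPKM in the controls and 3960, 3615 and 3393 FPKM in GONH2. The difference was 0.61 ± 0.061 (adjusted p = 0.00441), and it was called in each fit without 1 library. F10E9.12 was at 18.9, 16.8 and 18.1 FPKM in controls and 31.8, 30.4 and 24.9 FPKM in GONH2 (0.66 ± 0.094, adjusted p = 0.0276), with the lowest GONH2 value in replicate 3 still above every control; it was lost in 6 of 9 fits without 1 library (adjusted p up to 0.139 without GONH2 replicate 2). The galectin gene lec-8, whose product binds galactose-containing glycans, rose by 0.37 ± 0.059 (adjusted p = 0.0432) from 172 ± 6.25 to 224 ± 10.7 FPKM, the 1 call among 12 galectins tested, and was lost in 7 of 9 fits (0.205 without GONH2 replicate 1). The more abundant galectin lec-6 was at 699, 639 and 709.7 FPKM in controls and 902, 794 and 745 in GONH2 and was not called (0.25, adjusted p = 0.453). A lipase-like gene, T21H3.1, rose from 845 ± 24.7 to 1059 ± 31.5 FPKM (0.33 ± 0.033, adjusted p = 0.00441). The adjacent genes ZK1320.2 and ZK1320.3, on the same strand of chromosome II (9657882 to 9660419 for the pair), rose by 0.27 (adjusted p = 0.00459) and 0.41 (adjusted p = 0.0220). ZK1320.2 was not called without the mean-variance trend (adjusted p = 0.0548), and ZK1320.3 was lost in 5 of 9 fits without 1 library (adjusted p up to 0.109 without GONH2 replicate 2). Apart from Y69H2.3 and scl-24, described with GO, the remaining rises were C49C3.9, C14C6.2, C14C6.5, R08E3.1, Y43C5A.2, C01B10.6, H34I24.2, Y7A5A.1, M28.10 and F32A5.4, with differences from 0.26 (F32A5.4) to 0.50 (C49C3.9). C14C6.2, C14C6.5 and C01B10.6 were called in each fit without 1 library. The call was lost in 9 of 9 such fits for F32A5.4, in 8 of 9 for C49C3.9 and for Y43C5A.2, in 7 of 9 for M28.10, in 6 of 9 for R08E3.1, in 4 of 9 for H34I24.2 and in 3 of 9 for Y7A5A.1.

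Among the remaining falls, asm-3 and cel-mir-8199 had the lowest levels in GONH2 relative to control. The acid sphingomyelinase gene asm-3 (WBGene00000213, chromosome IV, 520214 to 523809) encodes an enzyme that releases ceramide from sphingomyelin. It stood at 3.30, 2.77 and 3.56 FPKM in the controls and 0.619, 0.524 and 0.407 FPKM in GONH2. Every GONH2 library was under every control, with a difference of −1.47 ± 0.13 (adjusted p = 0.00343). The gene passed the filter through the controls alone, so it could be tested only because it was high there. It was called in each fit without 1 library and without the filter (adjusted p = 0.00553), but these refits use the same values and add no support. It was the 1 called gene of 11 tested for lysosomal sphingolipid breakdown, where 3 genes were higher and 3 lower at an unadjusted p under 0.05. The related genes, named after their values were seen, were not called: asm-1 was at 10.4, 8.30 and 8.55 FPKM in controls and 9.17, 8.50 and 9.01 in GONH2, and asm-2 had a difference of −0.36 (adjusted p = 0.749). For the microRNA gene cel-mir-8199 the table lists 728, 731 and 242 FPKM in controls and 0 in all GONH2 and GO libraries. Since 157 genes of the table have a listed 0 beside high values in other libraries, this value is given as listed and no fold is drawn from it.

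T16G1.7 was at 5.97, 4.03 and 3.72 FPKM in controls and 1.41, 1.22 and 1.78 FPKM in GONH2 (−1.16 ± 0.18, adjusted p = 0.0432), with 60 exon bases shared with T16G1.2 on the opposite strand. The alpha-amylase gene C50B6.7, for starch breakdown, was at 12.9, 13.1 and 13.04 FPKM in controls and 7.77, 6.60 and 6.05 FPKM in GONH2. The 3 controls were almost equal, and the difference of −0.85 ± 0.089 (adjusted p = 0.00494) was called in each fit without 1 library. The glycine-rich secreted protein gene grsp-4 went from 26.4, 26.8 and 25.8 FPKM to 20.7, 20.2 and 21.6 FPKM (−0.33 ± 0.052, adjusted p = 0.0465), and all 4 tested members of its family had estimates under 0. The acid phosphatase family gene pho-11 went from 151, 148 and 153 to 129.6, 115 and 116 FPKM (−0.32 ± 0.048, adjusted p = 0.0314), the 1 call among 9 acid phosphatases tested. Of these falls T16G1.7 was lost in 9 of 9 fits without 1 library (adjusted p up to 0.209 without GONH2 replicate 1), grsp-4 in 8 of 9 (0.219 without GONH2 replicate 2) and pho-11 in 7 of 9 (0.139 without GONH2 replicate 2). The exons of pho-11 share 34 bases with C05C10.3 on the opposite strand, which stood at 117 to 152 FPKM; whether the counting used strand is not given.

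Families that answer to oxidants and foreign compounds held no called gene by limma. None of 10 superoxide dismutase, catalase and peroxiredoxin genes and none of 17 glutathione and thioredoxin genes had an unadjusted p under 0.05, and their medians were −0.026 and −0.0012. The abundant peroxiredoxin gene prdx-2 was at 1121, 1088 and 1110 FPKM in controls and 1075, 1118 and 1063 FPKM in GONH2, a 95% interval of −0.10 to 0.044. For sod-1, the cytosolic superoxide dismutase, the interval was −0.033 to 0.13. Of 38 glutathione S-transferase genes and of 45 cytochrome P450 genes, 1 was higher and 1 lower at an unadjusted p under 0.05 in each list, and of 48 UDP-glucuronosyltransferase genes 1 was higher and 4 lower. The member with the smallest p among the transferases, gst-41, was at 6.22, 4.67 and 5.57 FPKM in controls and 3.96, 3.74 and 3.94 in GONH2 (adjusted p = 0.369). In 33 metal and iron genes 2 were higher and 1 lower without adjustment. The first by p was cdr-4, a cadmium-responsive gene, at 20.6, 23.5 and 20.7 FPKM in controls and 35.4, 32.6 and 26.9 in GONH2 (0.52, adjusted p = 0.0882).

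Stress responses of protein folding and the core machinery gave no call by limma either. At an unadjusted p under 0.05, 1 of 18 heat shock genes was higher, 1 of 20 endoplasmic reticulum stress genes was higher and 1 of 11 genes of the mitochondrial unfolded protein response was lower. The abundant chaperone genes hsp-1, crt-1 and hsp-6 had 95% intervals of −0.11 to 0.11, −0.13 to 0.13 and −0.053 to 0.065. Of 54 respiratory chain genes 2 were higher and 2 lower without adjustment, and 1 of 80 ribosomal protein genes and 1 of 33 proteasome genes were lower. Cuticle collagens, the structural proteins of the worm's outer coat, had no call among 77 tested, but 16 were lower and none higher at an unadjusted p under 0.05, and 6 of the 77 estimates lay above 0. Their median was −0.092. Of all genes tested, 1.92% were lower without adjustment. As log2 deviation from each gene's mean over the 6 libraries, the list median was 0.105, 0.121 and −0.013 in control replicates 1, 2 and 3. In the GONH2 replicates it was −0.175, −0.060 and −0.055, so the fall leaned mostly on control replicates 1 and 2. Some of the 16 had widely spread controls, such as col-107 at 2.48 to 30.04 FPKM. Others had close ones, such as col-184 at 1475 to 1511 FPKM. The member with the smallest p, col-10, was at 14.2, 10.03 and 4.73 FPKM in controls and 2.93, 2.62 and 4.11 in GONH2 (adjusted p = 0.320), while the abundant col-119 was at 3238, 3536 and 3487 and 3267, 3263 and 3241 FPKM. Vitellogenins, the yolk proteins made by the intestine, had 2 of 5 genes lower without adjustment and none called by limma. The values of vit-5 were 2649, 2605 and 2721 FPKM in controls and 2359, 2389 and 2282 FPKM in GONH2, without overlap (−0.18, adjusted p = 0.0858), and those of vit-6 were 4623, 4686 and 4780 and 4861, 4815 and 4539 FPKM (95% interval −0.076 to 0.10). The yolk gene vit-2 was listed at 0 in all 9 libraries.

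**Figure D3:**
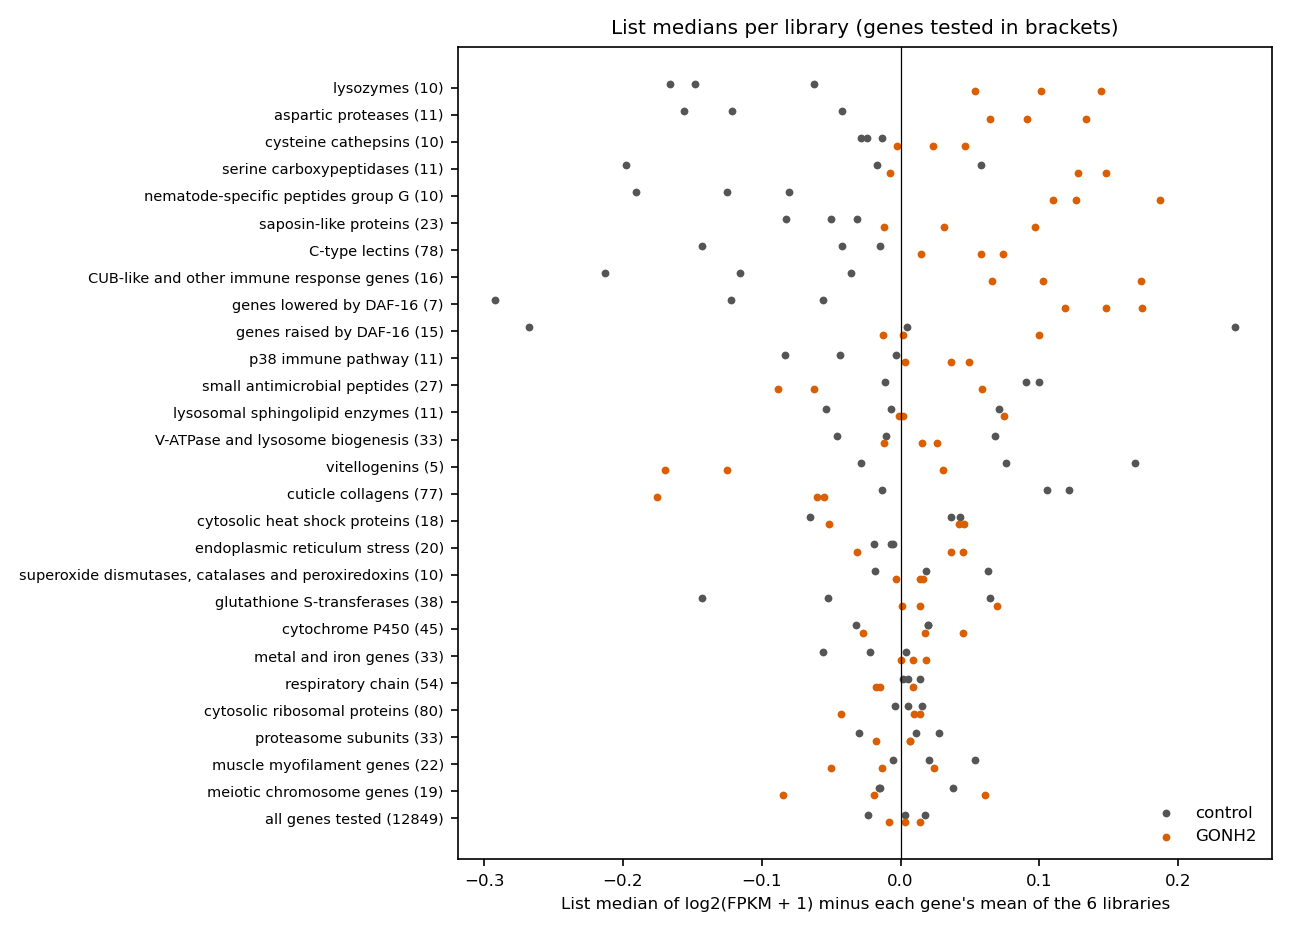
Median over each list, in each library, of log2(FPKM + 1) minus the gene's mean over the 6 libraries, with the genes tested in brackets; grey points are control and orange points GONH2 libraries. The GONH2 points lie right of the control points for lysozymes, aspartic proteases, nematode-specific peptides, C-type lectins, CUB-like genes and genes lowered by DAF-16. By small distances, they also lie right of them for saposin-like proteins, cysteine cathepsins and the p38 pathway. They lie left of the control points for cuticle collagens, and among them for ribosomal, respiratory and proteasome genes.

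Markers of the tissues of a whole animal were compared, since in bulk RNA fewer cells of a type and less RNA per cell cannot be told apart. Of 13 intestinal markers 12 were tested, and vit-2 was at 0; the summed FPKM of the list was 3002 to 3081 in controls and 3333 to 3515 in GONH2. That list holds asp-1, itself called. Without it the sums were 1788 to 1870 FPKM in controls and 1759 to 1858 in GONH2, which overlap. Most of these sums is cpr-6, at 1077 to 1090 FPKM in controls and 1057 to 1141 in GONH2. At an unadjusted p under 0.05, 1 of these 11 genes was lower and 2 were higher. Only ges-1 did not overlap, at 19.1 to 21.9 FPKM in controls and 24.5 to 27.5 in GONH2. Germline markers summed to 2505 to 2577 FPKM in controls and 2516 to 2658 in GONH2, body wall muscle markers to 1497 to 1531 and 1428 to 1510, and neuron markers to 340 to 346 and 334 to 352. Hypodermis and cuticle markers summed to 916 to 957 FPKM in controls and 858 to 912 in GONH2 without overlap; most of the sum is the adult collagen gene col-19 (adjusted p = 1). Pharynx markers summed to 68.6 to 87.2 FPKM in controls and 67.5 to 75.1 in GONH2, and 3 of 5 were lower without adjustment. Eggshell and embryo markers summed to 5555 to 5933 FPKM in controls and 5903 to 6086 in GONH2, which overlap. Of these 8 genes 2 were higher and none lower at an unadjusted p under 0.05, and 7 estimates lay above 0. Sperm markers were near 0 in all libraries. The part of these differences in the rises and falls was not tested.

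The test of GONH2 against GO compares the 2 materials as they were given. Their doses are not known here, so a difference cannot be assigned to the amino groups. Both materials were compared with the same 3 controls, so similar values in the comparisons with control are not independent of each other. Against GO directly, 5 genes were higher in GONH2 (0.0389% of the genes tested) and 12 lower (0.0934%). These counts changed with the library left out. Without GONH2 replicate 3 no gene was higher and 1 was lower by limma, and without GONH2 replicate 2 the counts were 2 and 6. Without GO replicate 1 they were 2 and 7, without GO replicate 2 there were 3 lower genes, and without GONH2 replicate 1 there were 7. Of the 46 genes that rose with GONH2, 9 were lower and 3 higher in GONH2 than in GO, and of the 10 that fell none was called in this test by limma. Against control, all of the 46 except Y46E12A.5, Y69H2.3 and scl-24 were also called higher with GO, with larger differences than with GONH2. Over all genes tested, 1.08% were called higher with GO. All of the 10 falls except grsp-4 (adjusted p = 0.186 by limma) were also called lower with GO, against 0.179% of all genes tested. Of these, asm-3, clec-70 and cel-mir-8199 passed the filter through the controls alone. Side by side, lys-7 stood at 400.2 ± 6.17 FPKM in control, 567 ± 5.43 in GONH2 and 688 ± 11.9 in GO (mean ± SD, n = 3 each). The difference between the materials for lys-7 was −0.28 ± 0.025 (adjusted p = 0.00725). The lectin genes clec-62, clec-65 and clec-85 had the same order, with GONH2 minus GO at −0.36 (adjusted p = 0.0172), −0.32 (adjusted p = 0.0316) and −0.46 (adjusted p = 0.0107). So did srlf-3 (−1.30, adjusted p = 0.00852), with 27.9, 30.6 and 34.2 FPKM in the GO libraries.

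None of the called protease genes passed the limma test between the materials. For asp-1 the GO libraries held 1700, 1700 and 1711 FPKM, and the 95% interval of GONH2 minus GO ran from −0.14 to 0.0083. For asp-6 it ran from −0.27 to −0.014, for cpr-9 from −0.17 to 0.062 and for pcp-1 from −0.31 to −0.044; a miss of the adjusted threshold does not show that the materials act alike. Among the falls, asm-3 was at 0.162, 0.446 and 0.241 FPKM in GO (interval −0.063 to 0.55) and C50B6.7 at 6.74, 7.08 and 7.26 FPKM (interval −0.25 to 0.16). The gene dod-19 was at 188, 212 and 216 FPKM in GO, and its difference of −0.50 (interval −0.78 to −0.22) did not pass either (adjusted p = 0.493).

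Y69H2.3 and scl-24 were higher with GONH2 than in the controls and stood near or under the control level with GO. Y69H2.3 (chromosome V, 18656088 to 18664126) was at 49.7, 52.2 and 52.97 FPKM in controls, 70.4, 72.8 and 74.4 FPKM in GONH2 and 54.6, 53.1 and 57.5 FPKM in GO. The difference from control was 0.48 ± 0.042 with GONH2 (adjusted p = 0.00272) and 0.092 with GO (adjusted p = 0.670), and the direct test between the materials gave 0.39 ± 0.042 (adjusted p = 0.0107). The SCP-like extracellular protein gene scl-24 was at 0.562, 0.595 and 0.698 FPKM in controls, 1.68, 2.02 and 1.81 FPKM in GONH2 and 0.273, 0.425 and 0.154 FPKM in GO. The difference from control with GONH2 was 0.81 ± 0.12 (adjusted p = 0.0387), a call lost in 9 of 9 fits without 1 library (adjusted p up to 0.194 without GONH2 replicate 2), and GONH2 minus GO was 1.15 ± 0.12 (adjusted p = 0.0107). Like Y46E12A.5, described above, scl-24 passed the filter of 1 FPKM through the GONH2 libraries alone, so neither test supports a difference between the materials.

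**Figure D4:**
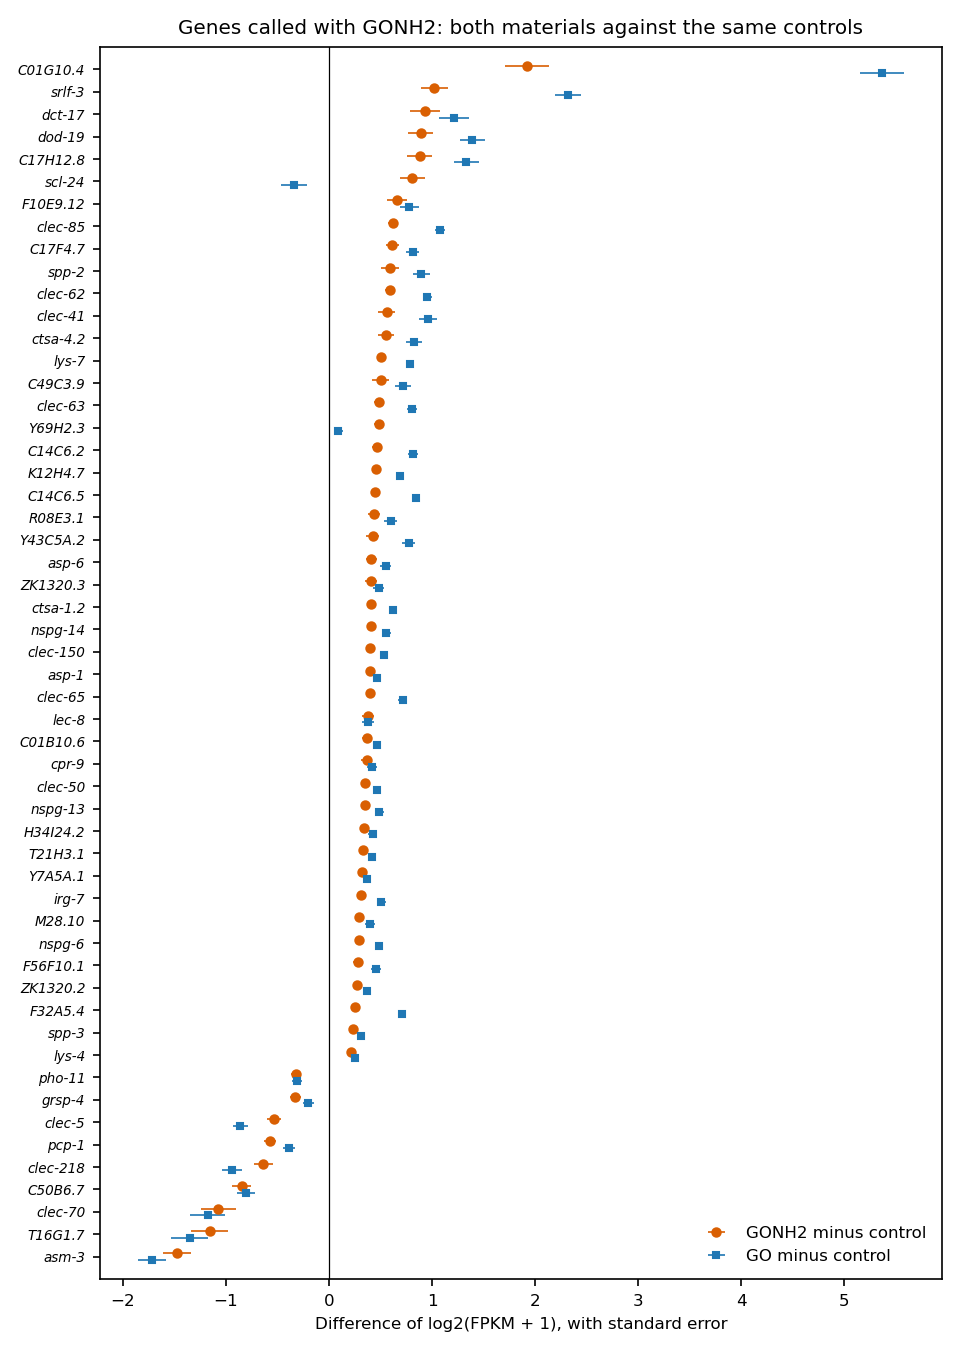
Log2(FPKM + 1) differences from control of the genes called in GONH2, for GONH2 (circles) and GO (squares), with standard errors; both share the 3 control libraries, and cel-mir-8199 and Y46E12A.5 are not drawn. For Y69H2.3 and scl-24 the square lies near or under 0 and left of the circle. For every other rise drawn the square lies further from 0 than the circle, by very little for lec-8. Among the falls, the clec genes, T16G1.7 and asm-3 lie further from 0 with GO, and pcp-1, grsp-4, pho-11 and C50B6.7 nearer to 0.

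Against control, GO gave 139 genes higher (1.08% of the genes tested) and 23 lower (0.179%), together 1.26%. The 10 of these with the smallest p that were not called with GONH2 are given for their GONH2 values. Of these dod-23, pqn-31, F55G11.4, asp-3, gba-1, F49F1.5 and K06G5.1 had GONH2 estimates of 0.43, 0.45, 0.36, 0.19, 0.30, 0.90 and 0.32 with adjusted p from 0.0509 to 0.0909. The gene gba-1 encodes a glucocerebrosidase, a lysosomal enzyme of sphingolipid breakdown, and stood at 16.7, 15.9 and 16.6 FPKM in controls and 21.2, 19.9 and 20.1 FPKM in GONH2. F49F1.5 was at 7.05, 8.68 and 5.90 FPKM in controls and 15.1, 11.4 and 16.5 FPKM in GONH2, without overlap. The others were vit-5 (−0.18, adjusted p = 0.0858), ttr-21 (0.32, adjusted p = 0.315) and Y47H9C.1 (0.40, adjusted p = 0.887). A call with GO and a miss with GONH2 is not a difference between them: of these 10 genes, dod-23 and pqn-31 were called in the direct test, with differences of −0.74 (adjusted p = 0.00852) and −0.64 (adjusted p = 0.0397).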

How the data were processed

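Whole-worm RNA was purified with TRIzol and columns, made into stranded TruSeq libraries and sequenced paired-end on an Illumina HiSeq, per the labels' protocols. The authors deposited 1 table of FPKM per gene and library for 9 libraries. The tool DESeq2 is listed, without its role or version, per the submitters' processing notes. The sources used here do not say which aligner, counting program or build was used, or how strand and reads shared between close paralogs were treated. Gene IDs were matched to the Ensembl release 115 annotation of WBcel235, which held 46109 of 46284. Of the called genes, 11 share exon bases with another protein-coding gene, 2 of them on the same strand.

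Genes that reached 1 FPKM in 3 or more libraries were kept. On log2(FPKM + 1), limma 3.58.1 in R 4.3.3 fitted the group means of all 9 libraries, with the trend of variance on level (2.47 prior and 6 residual degrees of freedom). P-values were adjusted by the Benjamini-Hochberg method over 12849 genes, with a threshold of 0.05. Depth is unknown from FPKM; the median 95% interval extended 0.217 log2 to each side. The fit was tested on simulated data.

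Genes and lists were chosen with earlier results of these data known. By rule, called genes may be named: the 15 largest rises and 10 largest falls with values per library, and for each list up to 4 called members, 2 abundant members that were not called and, where none was called, the member with the smallest p. The rule adds the genes called in GONH2 minus GO and 10 genes called in GO minus control and not in GONH2 minus control. Lists are described by counts and medians, without a test. Alternatives covered the value added, the filter, scaling, the trend, weights, 6 libraries alone, a block by replicate number, and each library left out. No genome sequence was used.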

Additional observations from a re-analysis of the deposited data

Results flagged for a closer look

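The response to the 2 materials was compared directly, and 17 genes differed between GONH2 and GO in the limma test of that difference at an adjusted p under 0.05. Values are log2(FPKM + 1) differences of GONH2 minus GO with standard errors, and the cause of none was tested. Lower with GONH2 than with GO were C01G10.4 at −3.44 ± 0.21 (adjusted p = 0.00151) and srlf-3 at −1.30 ± 0.13 (adjusted p = 0.00852). Among the lectins, clec-85 was at −0.46 ± 0.048 (adjusted p = 0.0107), clec-62 at −0.36 ± 0.042 (adjusted p = 0.0172) and clec-65 at −0.32 ± 0.040 (adjusted p = 0.0316). The lysozyme gene lys-7 was at −0.28 ± 0.025 (adjusted p = 0.00725).

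Of genes with no role given here, F32A5.4 was at −0.45 ± 0.040 (adjusted p = 0.00725), C14C6.5 at −0.40 ± 0.042 (adjusted p = 0.0107) and C14C6.2 at −0.35 ± 0.047 (adjusted p = 0.0427). The prion-like domain gene pqn-31 was at −0.64 ± 0.086 (adjusted p = 0.0397) and the DAF-16-lowered gene dod-23 at −0.74 ± 0.072 (adjusted p = 0.00852). F55H12.9 was listed at 0 in all control and GONH2 libraries and at 5.32, 2.28 and 1.89 FPKM in GO, a difference of −1.97 (adjusted p = 0.0397); it passed the filter on low values through the GO libraries alone, so this test supports no difference.

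Higher with GONH2 than with GO were Y46E12A.5 at 1.15 (adjusted p = 0.00886), scl-24 at 1.15 ± 0.12 (adjusted p = 0.0107) and Y69H2.3 at 0.39 ± 0.042 (adjusted p = 0.0107). Y46E12A.5 and scl-24 passed that filter through the GONH2 libraries alone, where they are high, so their tests support no difference. The genes pud-3 and pud-4 were at 0.88 ± 0.075 (adjusted p = 0.00725) and 0.95 ± 0.088 (adjusted p = 0.00798). They were not called between GONH2 and control. For pud-3 the controls held 138, 155 and 124 FPKM, GONH2 181, 175 and 193 FPKM and GO 95.99, 96.7 and 103 FPKM. For pud-4 they held 79.96, 70.7 and 68.5, 91.4, 75.6 and 89.7 and 44.3, 40.7 and 46.6 FPKM in that order. The GO libraries were under all others for both genes.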

How the results depend on the processing

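For GONH2 minus control, with 46 genes higher and 10 lower, the counts changed by more than 1.5 times in these settings. Without the filter on low values 27 were higher and 5 lower, without the mean-variance trend 22 and 5, from the 6 libraries alone 27 and 6, and with array weights 71 were higher. Leaving out 1 library gave 20 to 47 higher and 4 to 11 lower. For GONH2 minus GO, with 5 higher and 12 lower, a filter of 5 FPKM gave 3 higher, no trend gave 5 lower and array weights gave 36 lower, and leaving out 1 library gave 0 to 6 higher and 1 to 15 lower. Apart from the replicate block, given in the next paragraph, the other settings, among them the added values 0.1 and 0.5, both scalings, and genes with listed zeros left out and protein-coding genes only (both added after seeing the data), kept the counts within 1.5 times. Of 46 rises 18, and of 10 falls 4, were called in each of the 19 planned refits in which they were tested. Y46E12A.5 and asm-3 were too low to be tested with the filter of 5 FPKM. These counts include Y46E12A.5, asm-3 and cel-mir-8199, which passed the filter through 1 group alone. No called gene changed sign in any refit.

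The replicate numbers are only shared: the deviations of same-numbered libraries correlated at −0.11 to 0.25, over 0.1 in 2 of 9 pairs. With the replicate number as a block, 25 genes were higher and 4 lower for GONH2 minus control, and 3 higher and 5 lower for GONH2 minus GO.

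With 3 libraries in each group and no read totals, the median 95% interval reached 0.217 log2 to each side, which limits what could be detected. The called rises had a smaller residual SD (0.057) than genes tested (0.11). Listed zeros beside high values occur in 74 tested genes, 1 of them called.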

Other observations

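None of the 56 genes called by limma lies on chromosome I, which holds 2076 of the genes tested (16.2%). At an unadjusted p under 0.05, 81 genes of that chromosome differed by limma, and 5.31% of all genes tested did. On the other chromosomes 110 of 2261 differed on II, 99 of 2058 on III and 138 of 2068 on IV. On V it was 168 of 2466 and on X 85 of 1875. Of the 46 rises, 14 lie on chromosome V, 9 each on II and X, and 7 each on III and IV. Neighbouring genes of a family are part of these counts.

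Other gene families had no call by limma and are given as values. Of 117 neuropeptide genes tested, 5 were higher and 3 lower at an unadjusted p under 0.05; the member with the smallest p was nlp-40, a peptide gene of the intestine, at 168, 179.8 and 180.3 FPKM in controls and 216, 217 and 209.8 FPKM in GONH2 (0.28, adjusted p = 0.0534). Of 166 nuclear hormone receptor genes, 5 were higher and 2 lower, with nhr-99 first at −0.49 (adjusted p = 0.389). Of 13 hypoxia pathway genes 2 were higher, namely the sulphide-responsive gene cysl-2 at 92.5, 96.4 and 90.97 FPKM in controls and 131, 114 and 107 FPKM in GONH2 (adjusted p = 0.134), and the carbonic anhydrase gene cah-4 at 123, 143 and 127 and 163, 161 and 152 FPKM (adjusted p = 0.210). Of 14 fatty acid desaturase and elongase genes 1 was higher and 1 lower; fat-3, the delta-6 desaturase gene, was at 129, 116 and 121.8 FPKM in controls and 101, 85.9 and 86.1 FPKM in GONH2 (−0.43, adjusted p = 0.238). Among 9 fatty acid binding protein genes lbp-7 was at 21.6, 26.6 and 25.7 and 30.9, 34.4 and 39.4 FPKM (0.48, adjusted p = 0.320).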
